A study of Mus musculus with 5 samples.

Results

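The nuclear-encoded mRNAs of the mitochondrial respiratory chain were examined by nanopore direct RNA sequencing in mouse embryonic stem cells (mESCs). Members were taken by symbol, as protein-coding genes of GENCODE M21 (mm10) that begin with Ndufa, Ndufb, Ndufc, Ndufs, Ndufv, Uqcr, Atp5, Sdha to Sdhd, or Cox4 to Cox8. This gave 98 of 21951 genes. Of these, 56 had called adenosines in the METTL3 inhibition dataset, among 2607 covered genes, and 27 in the Mettl5 dataset, among 1009 covered genes. The members carried 5597 of 458029 exonic positions in the first dataset and 2377 of 186529 in the other. Complexes were assigned from the symbols alone, here and below, and the place of each protein was not checked. By complex, 26 of 38 complex I genes, 4 of 4 complex II genes, 6 of 8 complex III genes, 7 of 18 complex IV genes, 8 of 18 ATP synthase genes and 5 of 12 assembly factors (Ndufaf and Sdhaf, which the symbol rule takes in) were covered in the METTL3 inhibition dataset. In the Mettl5 dataset the counts were 12, 3, 4, 2, 6 and 0. The genes without a called position were not measured, and their m6A state is not known from these data.

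The series held 5 libraries. In the METTL3 inhibition dataset, 1 library came from cells given STM2457, a catalytic inhibitor of METTL3, at 30 µM for 48 h, and 1 from cells given DMSO at 0.025% (v/v). Both came from the same E14 line, which carried the 2C::3xtbGFP-PEST and Zscan4::mCherry-PEST reporters, a doxycycline-inducible APOBEC1-YTH-HA-IRES-tdiRFP transgene and a homozygous METTL3-FKBP12 F36V degron knock-in, the latter pair not induced, so the DMSO control was not an unmodified line. In the Mettl5 dataset, 1 library came from untreated WT mESCs and 1 from each of 2 Mettl5-KO clones. Cells were grown in serum with LIF, with 2i added for maintenance. The libraries of a dataset shared a batch label, so comparisons were made within a dataset only. The clones were the only replicates, each is a single clonal line, and they share 1 WT library as control. Valid calls per library ranged from 17897440 to 71574467. Mettl5 itself had 0 called positions in every library, so the knockout labels could not be checked by its reads. Of 10 mESC markers, 10 had called positions in the METTL3 inhibition dataset and 7 in the Mettl5 dataset, against 0 of 10 markers of differentiated lineages in both. In such bulk libraries, fewer cells of a type and less RNA per cell cannot be told apart.

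The respiratory chain passes electrons from NADH (complex I) and succinate (complex II) through ubiquinone to complex III and from there through cytochrome c to complex IV, which reduces oxygen. The proton gradient that complexes I, III and IV build is used by the ATP synthase. Most subunits are encoded in the nucleus, by short and abundant mRNAs, and are imported into mitochondria. N6-methyladenosine (m6A) in mRNA is deposited mostly by the METTL3-METTL14 complex at the DRACH motif (D is A, G or T, R is A or G, H is A, C or T), mainly in long internal exons, around stop codons and in 3′ UTRs, while METTL5 methylates 18S rRNA.

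The sequences around the m6A sites on which the results turn are shown first. Each is the 21-base stretch of mm10 centred on the called adenosine, 5′ to 3′ on the transcript strand, with T for U. Capitals mark the DRACH motif, or the called adenosine alone where it lies outside DRACH. All are in the 3′ UTR except the 2 Uqcrfs1 sites named as coding and the Ndufaf2 site, which is coding too. Of the 7 sites above 50% in DMSO, 4 held GGACT or AGACT.
Uqcr10 (complex III), chr11:4702022-4702042, minus strand, exon 2: gtacaaacAGACTcacttctg
Uqcrq (complex III), chr11:53428948-53428968, minus strand, exon 2: ctacttatGGACTtccctttg
Uqcrfs1 3′ UTR (complex III), chr13:30540712-30540732, minus strand, exon 2: agacacgtGGACTcagggcct
Uqcrfs1 coding DRACH, chr13:30541194-30541214, minus strand, exon 2: ttacctggTAACTgcaactac
Uqcrfs1 coding outside DRACH, chr13:30540894-30540914, minus strand, exon 2: aggtgtctgtActcatcttgg
Sdha distal (complex II), chr13:74322403-74322423, minus strand, exon 15: atcagtctGGACTgtataaga
Sdha proximal, chr13:74322907-74322927, minus strand, exon 15: gttgcgccAGACTttgtctct
Sdhd upstream (complex II), chr9:50596836-50596856, minus strand, exon 4: tcgcggtgAGACTgaacattt
Sdhd downstream, chr9:50596831-50596851, minus strand, exon 4: gtgagactGAACAtttcatga
Cox8a (complex IV), chr19:7215216-7215236, minus strand, exon 2: gacaactgGGACCacatgtat
Ndufa8 (complex I), chr2:36036393-36036413, minus strand, exon 4: tggatcacAGACAttaacaaa
Ndufs1 (complex I), chr1:63143779-63143799, minus strand, exon 19: cagtaaatGGACAttgctgta
Ndufaf2 (assembly factor), chr13:108052849-108052869, minus strand, exon 4: ccagtgaaGAACTcttgcctt
Sdhaf2 (assembly factor), chr19:10502597-10502617, minus strand, exon 4: aagcccctGAACTgagccatc
Atp5d outside DRACH (ATP synthase), chr10:80145788-80145808, plus strand, exon 5: tgtctccattAaacaccagga

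The first question was how much m6A these mRNAs carry in the control cells. The level of a gene is the number of m6A calls over all valid calls at its DRACH adenosines, in percent. Over the 52 members with at least 3 covered DRACH adenosines, the DMSO level had a median of 1.79% (interquartile range 1.012 to 6.520%), beside 8.23% over all 2434 genes tested. Of the 52 members, 27 were under 2% and 16 at 5% or more. At single adenosines with more than 25 reads, 23 of 463 DRACH adenosines of members (4.97%) reached a level of 25%, beside 5465 of 38024 (14.4%) over all genes. Outside DRACH, the pooled level was 0.892% for members and 0.939% for all genes, so the lower values of the members lay in DRACH. No test was made of these differences, since the adenosines of a gene share their reads and the members are not replicates.

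The level varied among the complexes. The median DMSO level was 1.11% over 24 complex I mRNAs, 5.09% over 4 complex II mRNAs, 4.19% over 6 complex III mRNAs, 2.70% over 7 complex IV mRNAs, 1.12% over 7 ATP synthase mRNAs and 9.61% over 4 assembly factor mRNAs. All 4 assembly factor mRNAs were at 8.27% or more. Within complex I the range was from 0 to 15.3%.

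Among the members with at least 200 DRACH calls in DMSO, Sdhaf2 was the highest, at 35.0% (exact binomial 95% interval 30.9 to 39.2, 535 calls). Sdhaf2 encodes the factor that attaches FAD to the SDHA subunit. Ndufb7, an accessory subunit of complex I, followed at 15.3% (12.3 to 18.7, 522 calls), although none of its adenosines reached 25%. Uqcrfs1, the Rieske iron-sulfur subunit of complex III, was at 13.4% (12.3 to 14.7, 3230 calls). Ndufa2, a complex I subunit, was at 10.3% (8.83 to 12, 1480 calls), and Ndufaf2, a complex I assembly factor, at 10.04% (7.57 to 12.99, 508 calls). The intervals of Ndufb7 and Uqcrfs1 overlapped, as did those of Ndufa2 and Ndufaf2, so the order within each pair is not set by these counts.

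At the other end, Ndufb8 had 0 m6A calls among 583 DRACH calls in DMSO (exact 95% interval 0 to 0.631%) and Ndufa5 0 among 477 (0 to 0.770%). Uqcrc1, a core subunit of complex III, was at 0.136% over 5158 calls (0.0546 to 0.279). Ndufs7 was at 0.184% over 544 calls and Ndufa4 at 0.360% over 278. The 3 members with the most DRACH calls differed in level. Atp5b, the catalytic beta subunit of the ATP synthase, was at 1.001% over 32959 calls (0.897 to 1.11), and Atp5a1, the alpha subunit, at 1.02% over 26496 (0.898 to 1.14), both under the member median. Cox4i1, a nuclear-encoded subunit of complex IV, was above it, at 3.18% over 10835 (2.86 to 3.53). These intervals and those below cover counting error only.

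With METTL3 inhibited, the DRACH level was lower in most of these mRNAs. The STM2457 level had a median of 0.441% over the 52 members, and 50 of them were under 2%. Fisher's exact test, two-sided and adjusted by Benjamini-Hochberg over all 2434 genes, called 37 of 52 members lower (71.2%), against 82.5% of all genes, and 0 higher, against 0%. At an unadjusted p under 0.05 the counts were 37 and 0 of the members, beside 2021 and 0 of the 2434 genes. Without a test, 49 of 52 were lower, beside 2363 of 2434 genes, and all 16 members at 5% or more in DMSO were called. These 16 were picked by the DMSO level that enters the test, which favours a call. The share over all genes picked in this way was not counted. The relative decrease had a median of 85.5% over the 50 members above 0 in DMSO, beside 79.8% over all genes. The test compares 1 library with 1 library and has no replicate check.

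By complex, the median level fell from 1.11% to 0.344% in complex I (14 of 24 called), from 5.09% to 0.591% in complex II (4 of 4), from 4.19% to 1.17% in complex III (4 of 6), from 2.70% to 0.618% in complex IV (4 of 7), from 1.12% to 0.354% in the ATP synthase (7 of 7) and from 9.61% to 1.15% in the assembly factors (4 of 4). Over all genes tested, 82.5% were called lower. The groups are small, and differences among them were not tested. Each of the 15 members not called lower had 16 or fewer m6A calls in DMSO. Uqcrc1 stayed at 0.195% (0.0715 to 0.424) against 0.136% and Ndufa5 was at 0.204% against 0%. Neither passed the test.

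Uqcrfs1 went from 13.4% to 3.91% (3.31 to 4.59; Fisher's exact test, adjusted p = 1.67e-46). Uqcr10, a small subunit of complex III, went from 8.99% to 1.83% (adjusted p = 1.81e-49, same exact test), and Cox8a, a small subunit of complex IV, from 8.63% to 0.618% (adjusted p = 3.32e-87, same exact test). Sdhaf2 kept the highest level of the members in STM2457, at 9.61% (7.01 to 12.8), after 35.0% in DMSO. In Ndufb7 the level went from 15.3% to 1.27% (0.414 to 2.94), and in Ndufa2 from 10.3% to 0.478% (0.192 to 0.982). The deeply read Atp5b went from 1.001% to 0.232% (0.168 to 0.313), so a low level in DMSO did not preclude a call where the reads were many.

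**Figure D1:**
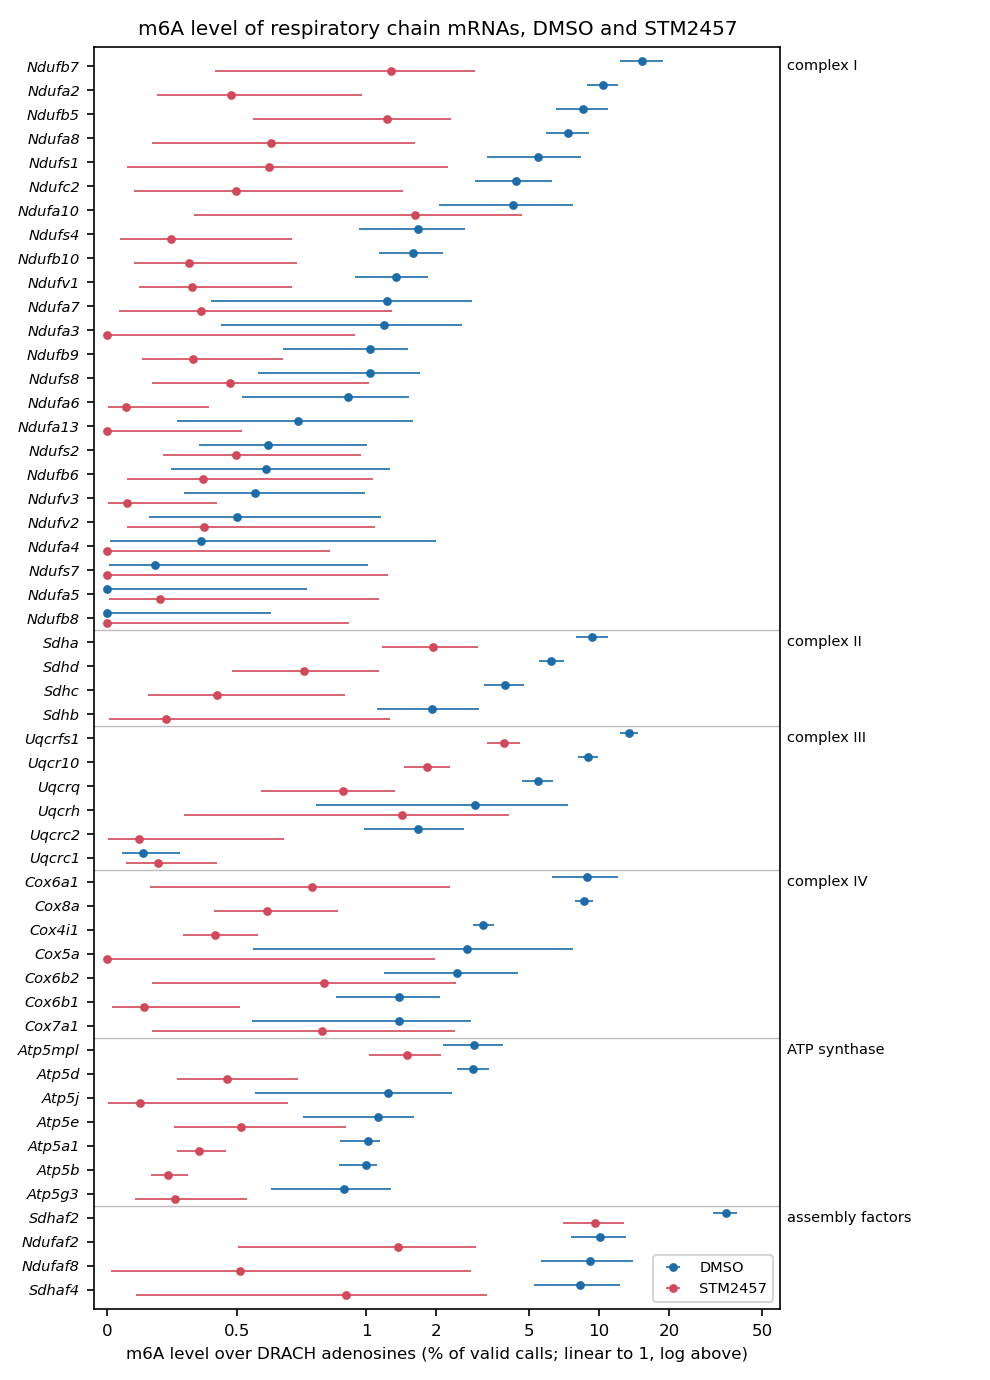
m6A level over DRACH adenosines (percent of valid calls; the axis is linear to 1 and logarithmic above) of 52 respiratory chain mRNAs in DMSO (blue) and STM2457 (red), 1 library each, with exact binomial 95% intervals. Genes are grouped by complex and ordered by the DMSO level; 49 of 52 were lower in STM2457.

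Over all adenosines of a gene, DRACH or not, the median went from 1.11% in DMSO to 0.789% in STM2457 in 53 members, and 25 of 53 (47.2%) were called lower by Fisher's exact test, against 73% of 2490 genes. No member was called higher, against 0.161% of genes, and 0 members were higher at an unadjusted p under 0.05, beside 5 of the 2490 genes. Outside DRACH, the pooled level of members was 0.892% in DMSO and 0.842% in STM2457, so the difference lay mostly in DRACH adenosines. Of 65 other genes of the pathway listed beside the members (cytochrome c, assembly factors of complexes III and IV, coenzyme Q synthesis, carriers and regulators), 20 had enough DRACH adenosines. Of these, 16 were called lower, against 82.5% of all genes, and 0 higher, against 0%. Their median was 10.4% in DMSO and 1.81% in STM2457. Coa6, a complex IV assembly factor, went from 38.6% to 14.8%, and Cycs, cytochrome c, from 4.83% to 2.01%.

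An m6A site was an exonic adenosine read more than 25 times in each library of the dataset, whose level reached 25% in 1 or more of them. In the METTL3 inhibition dataset, 26 of 6159 sites lay on 15 members. Of these, 22 were in a 3′ UTR and 23 in DRACH. Their levels had a median of 38.5% in DMSO, which went to 6.203% with STM2457. Fisher's exact test called 23 of 26 lower (88.5%), against 91.6% of all sites, and 0 higher, against 0.292%. At an unadjusted p under 0.05, 0 member sites were higher, beside 18 of the 6159 sites. A site at 25% in DMSO alone enters by the level that is then compared, which favours lower calls. This holds for member sites and all sites alike.

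The highest level was that of the 3′ UTR site of Uqcrfs1, at 90.7% (86.1 to 94.1) of 225 calls in DMSO and 39.3% (33.4 to 45.5) of 262 in STM2457. The distal Sdha site went from 85.1% of 47 calls to 22.2% of 27. Sdha encodes the flavoprotein subunit of complex II. The Uqcr10 site went from 68.1% (63.8 to 72.2) to 11.9% (9.24 to 15.04), and the site of Uqcrq, another small subunit of complex III, from 65.9% (59.0 to 72.3) to 9.48% (5.89 to 14.3). The Cox8a site, the most deeply read of these, went from 42.4% (38.8 to 46.1, 731 calls) to 2.83% (1.71 to 4.38, 672 calls). In each of these genes the DMSO and STM2457 intervals were apart.

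Among the lower sites, Ndufa8 went from 32.2% to 3.75%, Ndufs1, the large iron-sulfur subunit of complex I, from 44.7% to 5.26%, and Ndufa2 from 31.5% to 2.15%. The 2 Sdhd sites lie 5 bases apart and are read by the same molecules. The upstream one went from 27.4% to 2.50% and the downstream one from 29.2% to 3.25%. The proximal Sdha site went from 46.0% to 8.75%. The Ndufaf2 site went from 25.8% to 1.75%. The 2 sites of Ndufb5, a complex I subunit, went from 37.04% to 2.94% and from 26.9% to 3.03%, and the site of Sdhaf4, a complex II assembly factor, from 47.4% to 3.33%. Sdhaf2 held 7 of the 26 sites, each on 26 to 35 valid calls per library, from 85.7% to 22.2% at the one printed above.

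Of the 3 sites outside DRACH, 1 fell and 2 did not pass the test. The Uqcrfs1 site outside DRACH, where the adenosine lies in a gtActc context, went from 31.2% (25.1 to 37.8) to 2.02% (0.658 to 4.64), with 4.80% failed calls in DMSO. The Atp5d site was at 27.3% in DMSO and 27.2% in STM2457, with an adjusted p of 1 by Fisher's exact test, and the Atp5a1 site (chromosome 18, position 77782816) at 35.5% and 33.2% (Fisher's exact test, adjusted p = 0.626). Failed calls, which the authors' confidence filter leaves out of the level, were 46.7% in DMSO at both of these sites, beside 8.87% over the whole DMSO library. Atp5d had 95 m6A, 348 valid and 305 failed calls in DMSO, and Atp5a1 86, 242 and 212. Neither site reached 25% in either library once failed calls were counted in the denominator. That setting left 22 member sites instead of 26, of which 21 were called lower. Why more calls failed at these positions was not tested. The 1 DRACH site that was not called was in Sdhaf2 (chromosome 19, position 10502732), at 54.5% of 33 calls and 29.6% of 27 (Fisher's exact test, adjusted p = 0.0744).

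**Figure D2:**
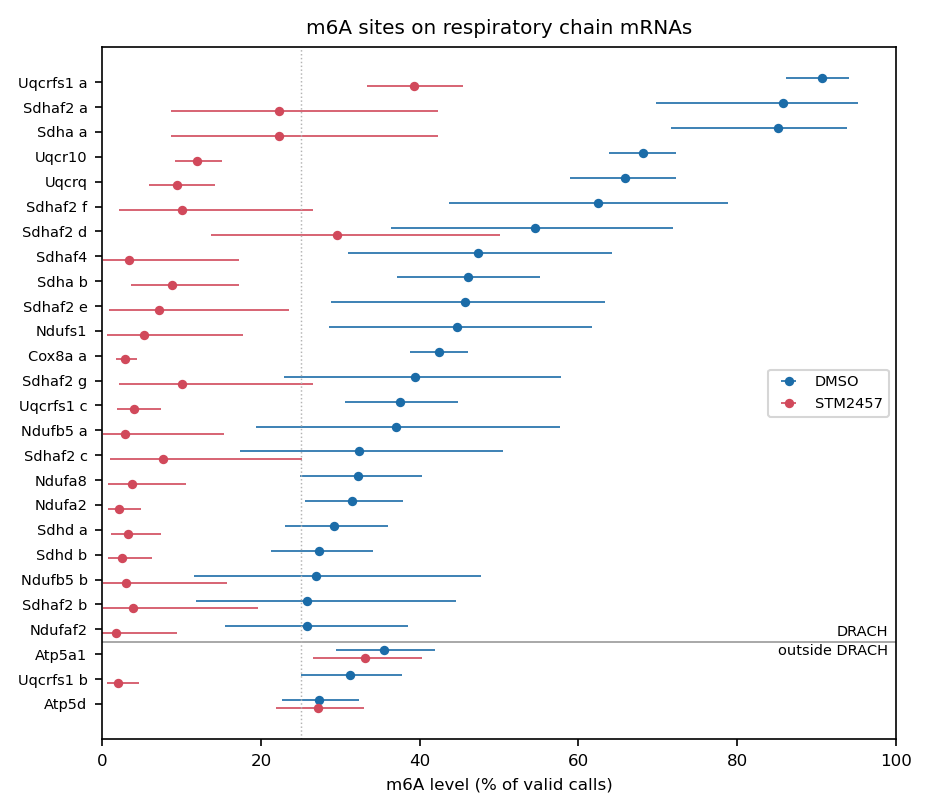
m6A level (percent of valid calls) with exact binomial 95% intervals at the 26 m6A sites of respiratory chain mRNAs in DMSO (blue) and STM2457 (red). Letters number the sites of a gene in order of position, the dotted line is the 25% threshold, and the 3 sites outside DRACH are below the grey line; Atp5d and Atp5a1 are the pair that kept 27.2% and 33.2% in STM2457.

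In transcript structure, which the symbol rule did not use, the members were shorter in the median but varied widely. The 53 members tested had a median transcript length of 809 bases (351 to 3171), beside 1980.5 for all 2490 genes tested. Their 3′ UTRs were 158 bases long in the median (15 to 2639), beside 572, and their longest exons 301 bases (145 to 2741), beside 820.5. Of the 56 covered members, 18 had transcripts of 1400 bases or more, and no test of these differences was made. The median exon length (141 and 139 bases) and the density of DRACH motifs (19.3 and 19.5 per kb) were alike. The members without a called position had a median length of 851.5 bases.

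Since m6A is sparse close to exon junctions, the DRACH level was set beside the distance to the nearest junction. Of the 468 DRACH adenosines of members, 445 entered; 5 that another gene shares and 18 off the gene's representative transcript did not. The 18 include 7 of Sdhaf2 and had a pooled level of 12.9% in DMSO. Members had 33.9% of their DRACH adenosines within 50 bases of a junction, beside 23.0% in the other genes, and 8.76% at 400 bases or more, beside 33.8%. Within 50 bases, the DMSO level was 0.998% in members and 1.07% in the other genes. From 50 to under 100 bases it was 1.02% and 2.72%, from 100 to under 200 bases 6.503% and 12.21%, and from 200 to under 400 bases 5.19% and 15.97%. At 400 bases or more it was 9.74% and 10.2%. With the nearest junction of any transcript, which takes in adenosines off the representative transcript, the member levels were 0.995%, 1.04%, 6.66%, 5.49% and 10.5%. In DMSO the members were thus close to the other genes in the nearest and the farthest bin and lower in the 3 bins between. The farthest bin held only 39 adenosines of 7 members, and without Uqcrfs1 its level was 7.19%. Without Uqcr10 the level from 100 to under 200 bases was 5.32%, and without Cox8a that from 200 to under 400 bases was 3.598%, so both remained under those of the other genes. In the Mettl5 dataset the farthest bin held 16 adenosines of 4 members, at 12.5% (WT), 12.4% (clone #1) and 11.4% (clone #2). The other genes were lower there, at 6.57%, 7.10% and 7.30%. In the 3 bins between, members were lower in each library, in WT at 1.19%, 5.38% and 3.57% beside 2.12%, 8.75% and 11.05%.

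In STM2457 the levels of members, from the nearest bin to the farthest, were 0.308%, 0.427%, 0.863%, 0.680% and 2.88%. The level was lower than in DMSO in each bin. By region, the pooled DRACH level of members was 1.43% in coding sequence and 6.26% in 3′ UTRs in DMSO, and 0.351% and 1.22% in STM2457. Over all genes the DMSO values were 4.51% and 12.5%.

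**Figure D3:**
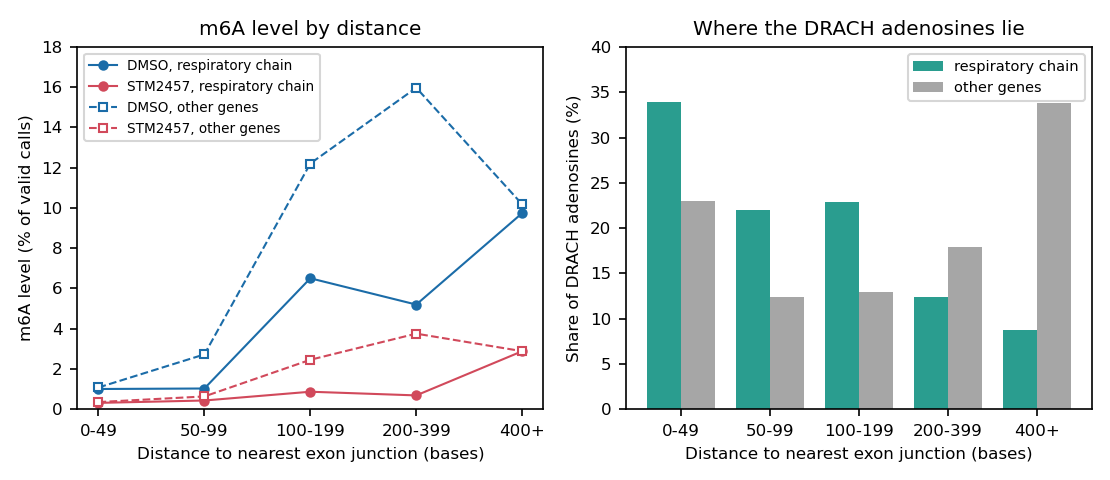
Left, pooled m6A level over DRACH adenosines (percent of valid calls) by distance to the nearest exon junction in DMSO (blue) and STM2457 (red), for respiratory chain mRNAs (filled circles) and all other genes (open squares). Right, share of DRACH adenosines in each bin; members have 33.9% within 50 bases and 8.76% at 400 bases or more.

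The next question was whether m6A of these mRNAs depends on METTL5. In the Mettl5 dataset, 23 members had at least 3 covered DRACH adenosines. The DRACH level of these mRNAs had medians of 1.49% (WT), 1.68% (clone #1) and 1.06% (clone #2), beside 4.19%, 4.52% and 4.49% over 909 genes. Fisher's exact test, each clone against WT, called 0 of 23 members lower in both clones, against 0% of genes, and 0 higher, against 0%. In clone #2 alone 0 were lower, against 0.55%, and 0 higher, against 1.43%. At an unadjusted p under 0.05 in both clones the counts of members were also 0 and 0, beside 3 lower and 19 higher of the 909 genes. The smallest adjusted p of a member was 0.799 in clone #1 and 0.443 in clone #2 (Fisher's exact test). In direction alone, 11 of 23 members were lower in both clones and 7 higher, beside 201 and 420 of 909 genes. Both clones share the WT library, and this direction carries no test.

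The deeply read members bound the change most tightly. Atp5b was at 0.965% in WT, 0.928% in clone #1 and 1.06% in clone #2, and Atp5a1 at 0.707%, 0.885% and 0.888%. Cox4i1 was at 2.37%, 2.58% and 2.34%, and Cox8a at 5.04%, 5.13% and 5.35%. The most highly methylated members were Uqcrfs1, at 16.3% in WT, 17.8% in clone #1 and 18.6% in clone #2, Ndufa2, at 11.3%, 10.5% and 10.3%, and Uqcr10, at 9.45%, 9.33% and 7.83%. The exact 95% intervals of the 3 libraries overlapped in each of these genes. Sdha, at 6.85%, 3.74% and 5.57%, and Sdhc, a membrane anchor of complex II, at 3.46%, 2.72% and 1.39%, were lower in both clones without passing the test. Uqcrq was at 0% in WT, but only 3 of its DRACH adenosines were covered in this dataset, and the site with 65.9% in DMSO was not among them.

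**Figure D4:**
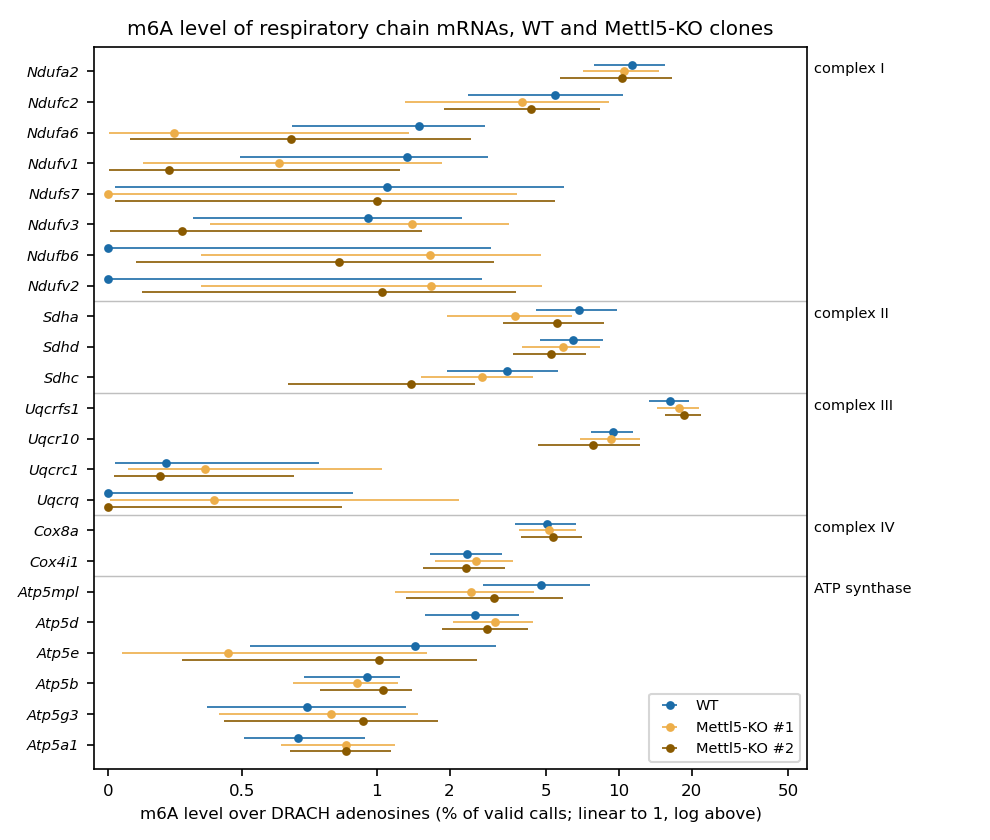
m6A level over DRACH adenosines (percent of valid calls; the axis is linear to 1 and logarithmic above) of 23 respiratory chain mRNAs in WT (blue), Mettl5-KO clone #1 (yellow) and clone #2 (brown), 1 library each, with exact binomial 95% intervals. No gene was called in both clones; Uqcrfs1 is the highest in all 3 libraries, at 16.3 to 18.6%.

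Over all adenosines, the medians of 25 members were 1.64% (WT), 1.65% (clone #1) and 1.34% (clone #2), beside 1.53%, 1.56% and 1.53% over all 939 genes. Fisher's exact test called 0 of 25 lower in both clones, against 0.106% of 939 genes, and 0 higher, against 0%. At an unadjusted p under 0.05 in both clones the member counts were 0 and 0, beside 15 lower and 18 higher of the 939 genes. In clone #2 alone, 1 member was called lower, against 0.532% of genes, and 0 higher, against 0.319%. This was Atp5g3, which encodes the c subunit of the ATP synthase, at 1.99% in WT, 1.92% in clone #1 and 1.17% in clone #2 (Fisher's exact test in clone #2, adjusted p = 0.000129). Its DRACH level was 0.741%, 0.830% and 0.947%, so the difference in clone #2 lay outside DRACH, where the level was 2.11% in WT and 1.20% in clone #2. The pooled level weights positions by their calls, and coverage along this gene differed. Its site outside DRACH was at 28.3% of 212 calls in WT and 25.3% of 75 in clone #2. The mean over its positions was 196.6 and 107.7 valid calls. Whether this bears on the pooled level was not tested. Of the other genes of the pathway, 0 of 9 were called in either direction by the DRACH level, against 0% of 909 genes. By all adenosines 0 of 10 were called, against 0.106% of 939 genes lower and 0% higher.

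At single sites, 11 of 1847 sites of the Mettl5 dataset lay on 6 members, and 6 of these were in DRACH. Fisher's exact test called 0 of 11 lower in both clones, against 0.0541% of all sites, and 0 higher, against 0%. At an unadjusted p under 0.05 in both clones the member site counts were 0 and 0, beside 6 lower and 34 higher of the 1847 sites. In clone #2 alone 0 were higher, against 0.108%. No member site had a log2 fold change of 1.5 or more in both clones, against 1.14% of sites, or of -1.5 or less, against 0.217%.

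The 3′ UTR site of Uqcrfs1 was at 90.5% of 63 calls in WT, 97.9% of 48 in clone #1 and 92.5% of 53 in clone #2. The Uqcr10 site was at 61.0%, 61.2% and 50%, the last on 26 calls. The Cox8a site was at 25%, 22.5% and 24.8% on 136 to 160 calls. The Ndufa2 site was at 33.9%, 26.8% and 29.6%, and the proximal Sdha site at 27.7%, 17.6% and 31.4%. The coding DRACH site of Uqcrfs1 was at 22.2%, 33.3% and 34.6%, and its responsive site outside DRACH at 32.7%, 37.0% and 26.7%. None of these sites moved beyond counting error in the same direction in both clones.

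The other 4 sites lay outside DRACH and were at 16.9% or less in DMSO, where they were not sites. A pair was in Uqcrfs1, at 38.7%, 19.2% and 19.4% (position 30541246 of chromosome 13) and at 9.52%, 25.7% and 16.3% (position 30541315). One was in Cox8a (position 7215402 of chromosome 19), at 32.6%, 28.3% and 33.9%, and one in Atp5g3 (position 73908498 of chromosome 2), at 28.3%, 30.95% and 25.3%. Failed calls at these sites were between 18.6% and 47.5% in the Mettl5 dataset, beside 8.31 to 9.15% over whole libraries. With failed calls counted in the denominator, 6 member sites were left instead of 11, and none of these 4 reached 25%. Why more calls failed at these positions was not tested.

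Read depth was compared as the reads at the deepest called position of each gene, scaled to the sum over all protein-coding genes. In STM2457 over DMSO the log2 ratio had a median of 0.09 in 56 members and 0.10 in all 2607 genes. Of the members, 1 was lower by 1.5-fold or more, against 6.02% of genes, and 6 were higher, against 14.3%. Sdhb, the iron-sulfur subunit of complex II, had 311 reads in DMSO and 153 in STM2457, a log2 ratio of -0.68 (95% interval -0.97 to -0.40). Cox5a had 29 and 49 reads (log2 ratio 1.10, 0.41 to 1.81), Ndufa4 64 and 106 (1.07, 0.61 to 1.54), and Uqcrh, the hinge protein of complex III, 29 and 44 (0.94, 0.24 to 1.67). Of the 6 higher members, Cox5a, Ndufa4, Uqcrh, Ndufa7 and Atp5mpl have transcripts of 528 to 645 bases, while Ndufs4 has 1698. By transcript length the median log2 ratio of members was 0.19 under 700 bases, 0.09 from 700 to under 1400 bases and -0.23 at 1400 bases or more, beside 0.16, 0.08 and 0.09 over all genes. Positions with under 25 valid calls in either library are absent. A gene that fell below this in STM2457, the library with fewer valid calls, could not be counted as lower. A gene below it in DMSO could not be counted as higher, and Cox5a and Uqcrh lie near this limit in DMSO. With 1 library per condition there is no test.

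In the Mettl5-KO clones against WT, edgeR's quasi-likelihood test with Benjamini-Hochberg adjustment called 1 of 27 members lower, against 0.892% of 1009 genes, and 0 higher, against 0.297%. At an unadjusted p under 0.05 the counts were 4 and 1 of the 27 members, beside 80 and 55 of the 1009 genes. Ndufb7 had 79 WT reads against 32 and 28 in the clones, and its log2 fold change was -1.33 (SE 0.29, edgeR adjusted p = 0.0398). The call was not made with median ratio scaling, with mean coverage or by DESeq2. Uqcr10 had 152, 74 and 39 reads, with a log2 fold change of -1.34 (SE 0.35, edgeR adjusted p = 0.0866). Without a test, 3 members were lower by 1.5-fold or more in both clones, against 4.56% of genes. They were Ndufb7, Uqcr10 and Ndufa9, a complex I subunit with 57, 29 and 33 reads. One was higher, against 2.97%, Ndufb6, with 45, 68 and 86 reads. Both complex I genes that were lower and the one that was higher rest on fewer than 100 reads in each library.

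**Figure D5:**
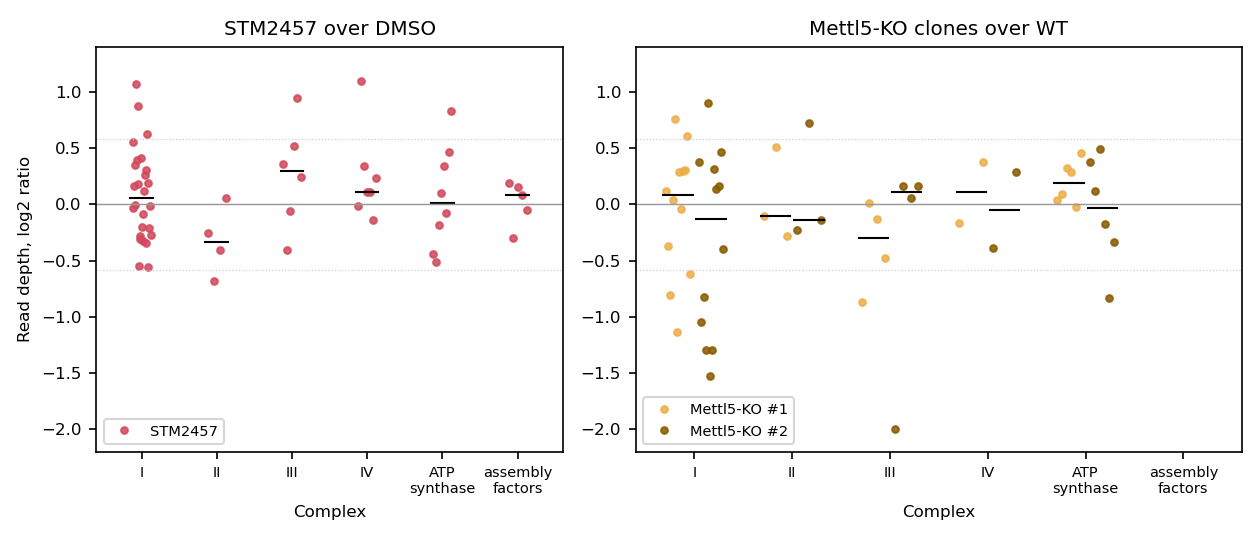
Read depth of respiratory chain mRNAs by complex, as the log2 ratio of reads at the deepest called position scaled to the library's sum, in STM2457 over DMSO (left, 56 genes) and in Mettl5-KO clones over WT (right, 27 genes). Each point is a gene, black bars are medians and dotted lines mark 1.5-fold; Uqcr10 in clone #2 is the lowest point.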

How the data were processed

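Poly(A) RNA of mESCs was sequenced directly on nanopores (SQK-RNA004). The authors demultiplexed reads with WarpDemuX, called bases and m6A and aligned to mm10 with dorado, and counted calls with modkit pileup. Their processing notes also name bedtools. The deposited counts per position and strand are valid, m6A, unmodified, other, failed and deletion calls, not normalized, and the deposited percent is m6A over valid calls. Calls under the confidence filter are left out, positions under 25 valid calls in a library of the dataset are absent, and sequencing from the poly(A) end favours 3′ ends. Depth per library is limited to what these positions show.

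Positions were assigned to GENCODE M21 protein-coding exons on the call strand (Python 3.11.15, pandas 2.3.3, scipy 1.17.1). Genes needed 20 adenosines or 3 DRACH adenosines. Calls of each gene or site were compared by Fisher's exact test, two-sided, adjusted by Benjamini-Hochberg over all genes or sites. Calls of 1 read at several adenosines are not independent, so p-values and exact binomial 95% intervals cover counting error. Depth used each library's deepest position, with edgeR 4.0.16 (TMM) and, as an alternative, DESeq2 1.42.0 (R 4.3.3). In the edgeR test the single WT library is assumed to vary like the clones. Tests were checked on simulated data. The members, lists and tests were chosen with earlier results of these data known. Named were members with a site, members called in the Mettl5 dataset, the 5 highest and 5 lowest DMSO DRACH levels among members with 200 or more calls, and the 3 largest depth changes each way past 1.5-fold. Other members and pathway genes named as examples were chosen after their values were seen. Alternatives were coverage, level, fold and p thresholds, equal weights, failed calls in the denominator, other exon sets, shared positions left out, other scalings and each clone left out. Several members share long stretches of sequence with pseudogene copies, whose reads cannot be separated here. The 12 members that share 30% or more of their 31-base words with another gene had no covered position in either dataset.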

Additional observations from a re-analysis of the deposited data

Results flagged for a closer look

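A position of Uqcrc1 (chromosome 9, position 108947378, exon 8, coding) carried calls of modifications other than m6A, which the comparisons above do not use. They made up 34.6% of 335 valid calls in DMSO and 39.4% of 188 in STM2457, with 0 m6A calls in both. The deposited counts pool these other modifications. Its sequence was ccacgtggccATTgcagtaga, where capitals mark the called adenosine and the next 2 bases. Of 5429 positions of members with more than 25 reads, 25 reached 15% in these pooled calls in DMSO, and 21 of them (84.0%) had ATT there, beside 5.45% of all these positions. Over all genes 841 of 440884 positions reached 15%, and 64.6% of these had ATT.

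Ndufs5 and Ndufb4 had no called position, while processed pseudogenes that share 36% and 38.3% of their 31-base words did. BC002163, the copy of Ndufs5, held 95 positions with up to 271 valid calls in DMSO and 263 in STM2457. Ndufb4c, the copy of Ndufb4, held 104 positions with up to 240 and 146. Of 12 members sharing at least 30% of these words with another gene, 0 were covered in either dataset, beside 56 and 27 of the other 86. The files do not show to which gene such reads belong.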

How the results depend on the processing

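Of the alternatives run on 27 results, 111 values stayed within 1.5 times of the reported count or within the spread, and 16 moved. Many of the 111 are counts of 0 beside a reported 0, which have no direction. With a stricter p threshold such a count could not change, so the tally does not measure robustness. The 23 member sites called lower in STM2457 became 12 with coverage above 50 reads, 48 with a level of 10% or more and 6 with 50% or more, by construction of the site rule. Members lower in depth in STM2457 (1) were 4 with median ratio scaling and 0 at a fold of 2, and those higher (6) were 2 at a fold of 2. In the clones, members lower by fold (3) were 1 at a fold of 2 and those higher (1) were 0. Leaving out each clone gave 4 to 7 lower, the 7 without clone #1, and 2 higher in either case. For the level over all adenosines in the clones, leaving out each clone gave 0 to 1 lower, the 1 being Atp5g3 without clone #1. The edgeR call of Ndufb7 was lost with median ratio scaling (0, smallest adjusted p 0.0604), mean coverage (0, 0.317) and DESeq2 (0, 0.999), and 1 position for all libraries gave 2. The cause was not tested. The last 2 alternatives were chosen after seeing the data. The edgeR test without 1 clone has no residual degrees of freedom and was not run. No paired analysis was possible because the groups compared share fewer than 2 replicate numbers. In simulated counts with the level halved in 200 genes, Fisher's test found 46% for STM2457 and 38% for the clones, so changes of that size at few calls can be missed. Those 200 genes were drawn from all genes tested. The members have lower DRACH levels in the median, so these shares need not hold for them.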
